A study of Mus musculus with 12 samples.

Results

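Glycolysis was followed through 10 genes of glucose entry and breakdown in CD4+ T cells of mice: the transporter gene Slc2a1 and the enzyme genes Hk2, Pfkl, Pfkp, Aldoa, Tpi1, Pgk1, Pgam1, Eno1 and Ldha. The genes were taken as a named list, and every probe set that the array annotation gives to one of them alone was used. Of the 10 genes, 9 had such probe sets, out of 18193 genes with a probe set of their own on the array. Eno1, an enolase, had none and is not analysed here. The 9 genes had 23 probe sets in all, namely 5 for Aldoa, 3 each for Slc2a1, Pfkl, Pfkp, Tpi1 and Pgk1, and 1 each for Hk2, Pgam1 and Ldha. All 23 passed the filter on dim probe sets.

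RNA of cells from female mice in 4 groups was hybridised to 12 Affymetrix Mouse Genome 430 2.0 arrays, which gives each group 3. The SKG group was FR4- CD4+ T cells from lymph nodes of 40-week-old SKG mice, a strain on the BALB/c background, and the BALB group came from BALB/c mice of the same age. Both were stimulated with PMA and ionomycin. FR4, a folate receptor, is known as a surface marker of regulatory T cells in mice, and SKG mice are known for a mutation in Zap70 and for arthritis driven by T cells. BALB replicate 1 differs from the others by its labels, since it was CD4+ T cells of spleen and lymph node together with no FR4 sort named. In the IFNg KO transfer group, RAG2 KO BALB/c hosts had received CD4 T cells of IFNg KO BALB/c mice. In the IL-6 KO transfer group, the hosts lacked IL-6 as well as RAG2 and the CD4 T cells came from IL-6 KO BALB/c mice. Cells of both transfer groups came from the spleen of 7-week-old mice 7 days after transfer, with no stimulation named. RAG2 KO mice make no T or B cells of their own, and the transfer groups differ in donor and in host, so the 2 cannot be told apart. The study set SKG against BALB cells and the IFNg KO against the IL-6 KO transfer.

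Glycolysis turns glucose into pyruvate and lactate in the cytosol, and T cells are known to raise it when they are activated. Hexokinase traps glucose in the cell as glucose 6-phosphate, phosphofructokinase commits the sugar to breakdown, and lactate dehydrogenase regenerates the NAD+ that the pathway needs. Several of these genes are textbook targets of HIF-1, the transcription factor of the response to low oxygen, and of Myc.

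Levels are given as log2(intensity + 16) after quantile normalization of the 12 arrays, with replicates 1, 2 and 3 in that order. A difference is on this scale, which understates the change of dim probe sets, and no level of one probe set is compared with that of another. Tests are limma's moderated test with Benjamini-Hochberg adjustment over all 27022 probe sets tested, and a difference was called where the adjusted p was under 0.05. No label says whether the 3 samples of a group came from separate mice, and a p-value reflects only how far these samples scatter. In whole cell samples, a change in the mix of cells and a change in RNA per cell cannot be told apart.

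Replicate 3 stood apart from replicates 1 and 2 in both transfer groups. The 3′ to 5′ ratio of the deposited Gapdh control intensities, a measure of how far labelled RNA reached back towards the 5′ end, was 2.72, 2.84 and 7.99 in the IFNg KO transfer and 2.44, 2.42 and 9.33 in the IL-6 KO transfer. In SKG cells it was 3.03, 2.57 and 2.90, and in BALB cells 3.28, 3.03 and 2.86. The actin control ratio was 2.12, 1.93 and 2.63 in SKG cells, lower on every array than the 3.04, 2.95 and 3.98 of BALB cells. T cell markers were present in all groups, with Cd3d averaging 10.73 in SKG, 10.57 in BALB, 10.74 in IFNg KO transfer and 10.80 in IL-6 KO transfer cells. The other T cell markers were less even. Cd3g averaged 10.79 in SKG and 9.73 in BALB cells, and Cd5 averaged 11.16 and 12.13. In the same order of 4 groups, Cd3e averaged 7.95, 7.33, 9.18 and 9.22. Cd4 averaged 6.90, 6.68, 8.22 and 8.46. Same-numbered replicates were treated as pairs, so values from a fit that takes the number as a block are given where it changes a call.

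Hk2 was higher in SKG than in BALB cells, and it was the one of the 9 genes called between them without the replicate block. It encodes the hexokinase isoform known to be induced when T cells are activated. Slc2a1, Pfkl and Pgam1 gave negative differences between -0.45 and -0.24, and Tpi1 and Ldha positive ones between 0.13 and 0.30, none of which passed the test. The probe sets of Pfkp, Aldoa and Pgk1 were split in sign. Hk2 read 11.70, 11.12 and 10.95 in SKG cells, against 10.35, 10.36 and 10.21 in BALB cells. Every SKG array was above every BALB array. The difference was 0.95 ± 0.19 (SE, n = 3 each), with a 95% interval of 0.53 to 1.37 and a limma adjusted p of 0.00753. In deposited intensities the SKG arrays held 2815.1, 1924.8 and 2379 against 1265.1, 1238.6 and 1426.1 on the BALB arrays. Leaving out each array in turn gave differences between 0.73 and 1.10, all called, and without BALB replicate 1 the difference was 0.97 (limma adjusted p = 0.0287).

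Of the 23 glycolysis probe sets, Hk2 alone was called higher and none was called lower in SKG cells, while 20.2% of all probe sets tested were called in either direction. Without adjustment, 5 of the 23 had a limma p under 0.05, 2 higher and 3 lower, against 33.4% of all probe sets in either direction. The median difference of the 23 was 0.01 against 0.00 over all probe sets, and the median size regardless of sign was 0.24 against 0.33. Differences were positive for 12 of the 23 and ran from -0.52 to 0.95. With the replicate block, 2 were called higher and 2 lower, against 27.8% of all probe sets. The 4 were Hk2 and a Pgk1 probe set (1439435_x_at) higher, and Pgam1 and a Pfkp probe set (1437759_at) lower. SKG and BALB arrays did not overlap for 6 of the 23, 2 of them higher and 4 lower in SKG cells, against 38.1% of all probe sets in either direction.

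**Figure D1:**
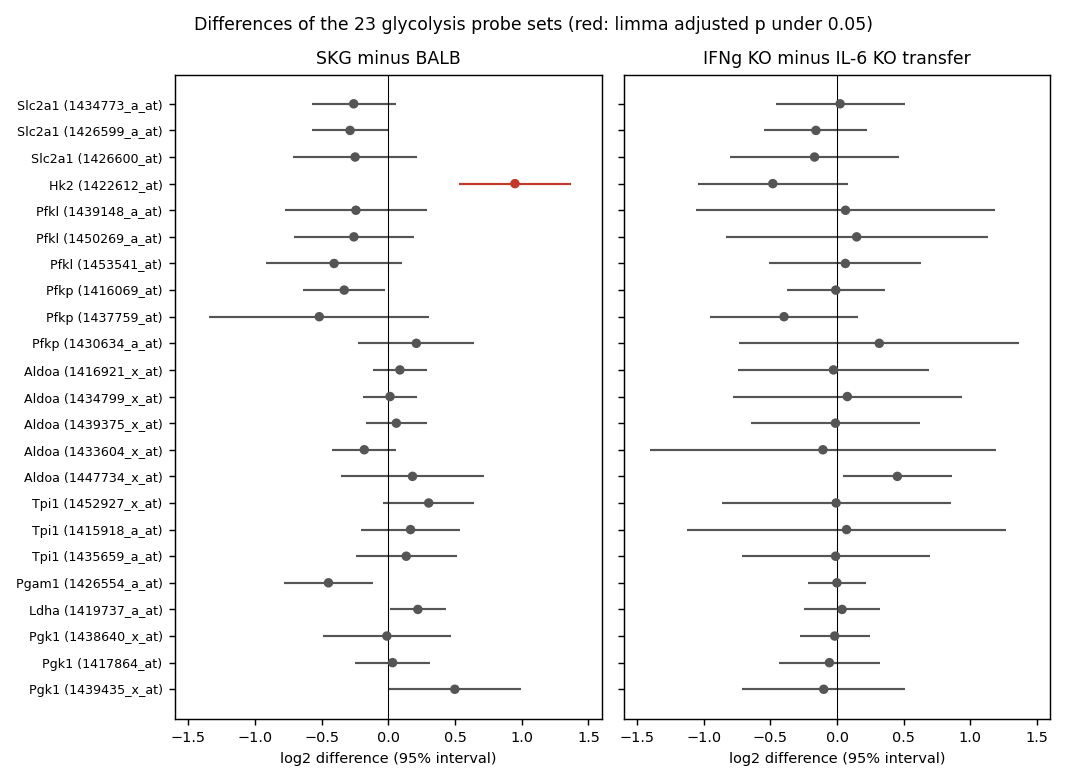
Log2 difference with its 95% interval for each of the 23 glycolysis probe sets, SKG minus BALB on the left and IFNg KO transfer minus IL-6 KO transfer on the right. Probe sets are grouped by gene, from Slc2a1 at the top to Pgk1 at the bottom. Hk2 at 0.95 is the one red point, that is, the one called by limma, and the wide intervals on the right belong to probe sets of Pfkl, Pfkp, Aldoa and Tpi1.

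A few markers of other cells were called between SKG and BALB cells, and most of those tested were not. Of 2 CD8 T cell markers, 1 was called lower in SKG cells: Cd8b1, the CD8 beta chain, averaged 5.44 ± 1.04 in SKG and 7.95 ± 0.02 in BALB cells (SD, n = 3 each, limma adjusted p = 0.00387). Cd8a, the CD8 alpha chain, had the opposite sign and was not called, with means of 5.55 in SKG and 4.74 in BALB cells (limma adjusted p = 0.0806). The summed deposited intensity of both markers was 25.3 to 142.6 on SKG arrays and 217.3 to 285.9 on BALB arrays. Of 4 plasma cell markers, 2 were called higher in SKG cells, namely Xbp1, a transcription factor of secretory cells that other cells also express, and Derl3, where 14.4% of 12079 genes were called higher by their brightest probe set and 10.7% lower. Xbp1 averaged 12.30 in SKG and 11.29 in BALB cells. Of the defining plasma cell markers, Jchain averaged 9.40 in SKG and 8.40 in BALB cells (limma adjusted p = 0.128) and Sdc1 differed by -0.64 (adjusted p = 0.0966), neither of them called. The summed intensity of the 4, to which Xbp1 gave the most, was 4955 to 6934.9 on SKG arrays and 2501.9 to 4340.4 on BALB arrays. Of 5 T cell markers with a probe set, Cd5 was called lower in SKG cells, and 0 of the 4 B cell, 5 macrophage, 3 dendritic cell, 3 neutrophil, 1 erythroid and 1 stromal markers tested were called. Neither of the NK cell markers with a probe set passed the filter on dim probe sets, so no NK cell marker was tested, and their summed intensity was 13.6 to 34.1 on SKG arrays and 3.2 to 38.9 on BALB arrays. The part of these cells, and that of the actin ratio, in the difference of Hk2 was not tested.

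Glucose entry was described by Slc2a1, which encodes GLUT1, the main glucose transporter of activated T cells. Its brightest probe set (1434773_a_at) read 10.55, 10.46 and 10.80 in SKG cells and 10.75, 10.82 and 11.02 in BALB cells. The groups overlapped narrowly, and the difference of -0.26 ± 0.14 (SE) had a limma adjusted p of 0.232. A second probe set (1426599_a_at) read 9.78, 9.79 and 9.73 in SKG cells and 10.08, 10.03 and 10.05 in BALB cells. Here the groups did not overlap, with a difference of -0.29 ± 0.13 and a limma adjusted p of 0.148. The third (1426600_at) gave -0.25 with overlapping groups. All 3 probe sets therefore had the same sign and nearly the same size, and none was called, with or without the replicate block.

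Phosphofructokinase catalyses the committed step, and its liver-type and platelet-type subunits are encoded by Pfkl and Pfkp. The brightest Pfkl probe set (1439148_a_at) read 9.41, 9.76 and 9.23 in SKG cells and 9.99, 9.94 and 9.20 in BALB cells. Replicate 3 was low in both groups, and the groups overlapped. The 3 Pfkl differences ran from -0.41 to -0.24 and none was called. The brightest Pfkp probe set (1416069_at) read 11.18, 11.07 and 11.54 in SKG cells and 11.65, 11.55 and 11.59 in BALB cells. The groups did not overlap, but SKG replicate 3 lay just under BALB replicate 2. The difference was -0.33 ± 0.14 (SE), with a limma adjusted p of 0.121. A second Pfkp probe set (1437759_at) read 8.76, 8.74 and 7.82 in SKG cells and 9.42, 9.31 and 8.14 in BALB cells. The SKG array was below the BALB array of the same number for all 3 numbers, and its difference of -0.52 had a limma adjusted p of 0.367 without the block and 0.0281 with it. The third probe set (1430634_a_at) had the opposite sign, 0.21, and was not called.

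The middle of the pathway is carried by aldolase A (Aldoa), which splits the sugar, triosephosphate isomerase (Tpi1) and phosphoglycerate kinase (Pgk1), the first of the enzymes here that yields ATP. Differences of the 5 Aldoa probe sets ran from -0.18 to 0.18, on both sides of 0. The brightest (1416921_x_at) read 12.20, 12.20 and 12.30 in SKG cells and 12.10, 12.12 and 12.22 in BALB cells, and its difference of 0.09 had a 95% interval of -0.12 to 0.29. The 3 Tpi1 probe sets gave 0.13 to 0.30. The brightest of them (1452927_x_at) read 9.93, 10.32 and 10.01 in SKG cells and 9.80, 9.87 and 9.69 in BALB cells, so that every SKG array was above every BALB array, with a limma adjusted p of 0.202.

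Pgk1 was read differently by its 3 probe sets. The brightest (1438640_x_at) read 12.52, 12.48 and 12.98 in SKG cells and 12.44, 12.39 and 13.19 in BALB cells, a difference of -0.01, with replicate 3 the highest in both groups. The probe set 1439435_x_at read 12.38, 12.23 and 12.01 in SKG cells and 12.21, 11.73 and 11.19 in BALB cells, with replicate 3 the lowest in both. Its difference of 0.50 ± 0.22 (SE) had a limma adjusted p of 0.151, and of 0.0187 with the replicate block. The third (1417864_at) gave 0.03.

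Pgam1, which encodes the phosphoglycerate mutase of most tissues, read 11.62, 11.68 and 12.16 in SKG cells and 12.18, 12.22 and 12.42 in BALB cells. Every SKG array was below every BALB array, SKG replicate 3 narrowly so. The difference was -0.45 ± 0.15 (SE, n = 3 each), with a limma adjusted p of 0.0624. With the replicate block the same difference had a limma adjusted p of 0.00797, and without SKG replicate 3 it was -0.62 with an adjusted p of 0.00361. Leaving out each array in turn gave -0.62 to -0.35, with limma adjusted p up to 0.211. Ldha, the lactate dehydrogenase subunit that favours lactate formation, read 13.12, 13.29 and 13.02 in SKG cells and 12.84, 12.91 and 13.02 in BALB cells. The groups met at their replicate 3 arrays, and the difference of 0.22 ± 0.09 (SE) had a limma adjusted p of 0.134, or of 0.0488 for 0.28 without SKG replicate 3.

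**Figure D2:**
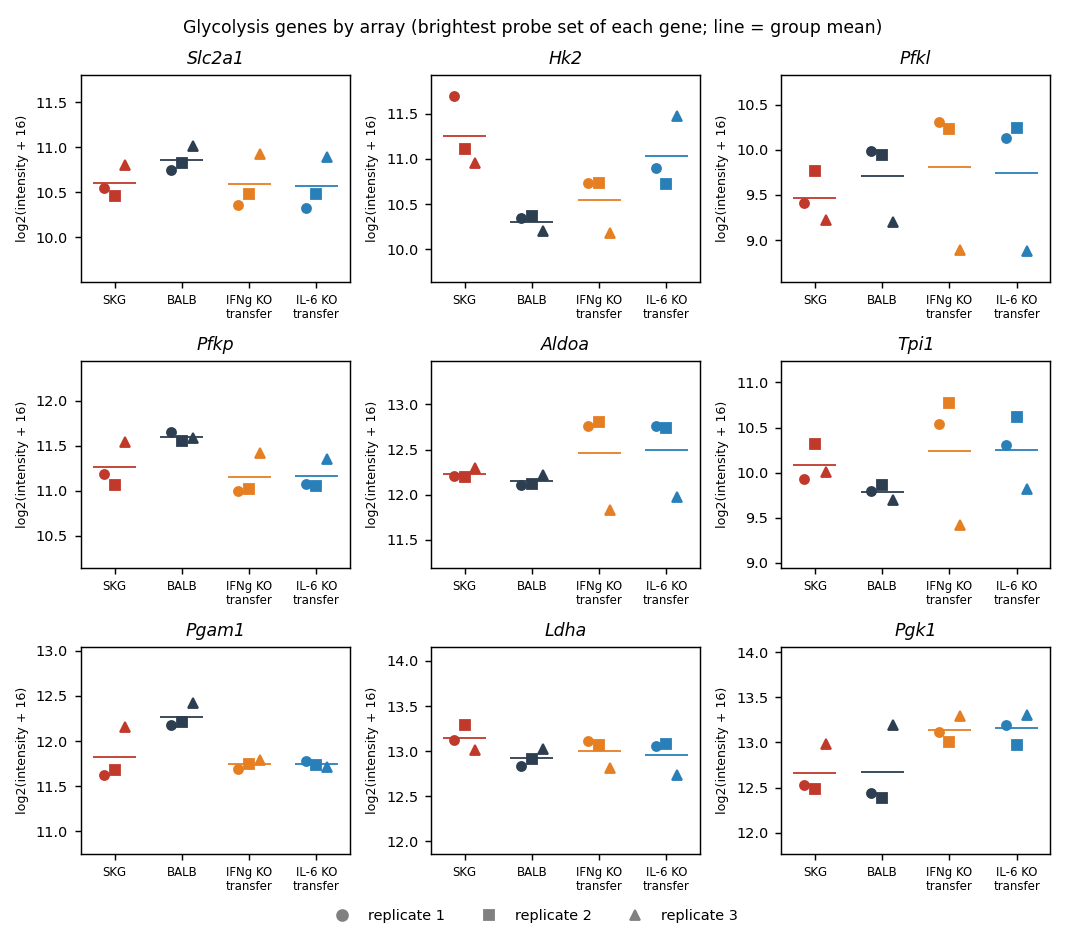
Level of the brightest probe set of each of the 9 glycolysis genes on the 12 arrays, as log2(intensity + 16), with a panel per gene, a symbol per replicate number and a line at each group's mean (n = 3). Hk2 shows the SKG arrays above the BALB arrays, Pgam1 shows them below, and in the panels of Pfkl, Aldoa and Tpi1 the triangles of replicate 3 lie under the other transfer arrays.

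Since replicate 3 carried part of the spread, the comparison was also run on replicates 1 and 2 alone, a choice of samples that leaves 2 arrays per group. There 3 of the 23 probe sets were called higher in SKG cells and 6 lower by limma, while the number called among all probe sets was 9031 in place of 5446. The 3 higher were Hk2 at 1.05, Ldha at 0.33 (adjusted p = 0.0035) and an Aldoa probe set (1447734_x_at) at 0.42. The 6 lower were Pgam1 at -0.54, Pfkp at -0.47 and -0.62, Pfkl at -0.38 and -0.74, and Slc2a1 at -0.28. Without BALB replicate 1, the sample with the other tissue label, 2 were called higher, Hk2 and the Pgk1 probe set 1439435_x_at at 0.75 (limma adjusted p = 0.0351), and none lower, with 3168 called among all probe sets.

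The start regions of Hk2, Ldha and Ldhb, a lactate dehydrogenase gene outside the list, are shown because these genes stand at the entry and the end of the pathway and their SKG minus BALB differences were 0.95, 0.22 and -1.61. Each is the 300 bases from 250 before to 50 after a start of the gene, 5′ to 3′, from RefSeq on GRCm38.p6. They lie at chr6:82774405-82774704 on the minus strand for Hk2, chr7:46845554-46845853 on the plus strand for Ldha and chr6:142507908-142508207 on the minus strand for Ldhb. Capitals mark ACGTG or GCGTG on either strand, the core of the sequence that HIF-1 is known to bind, together with CACGTG, the E-box that Myc is known to bind and that contains ACGTG on both strands.
Hk2: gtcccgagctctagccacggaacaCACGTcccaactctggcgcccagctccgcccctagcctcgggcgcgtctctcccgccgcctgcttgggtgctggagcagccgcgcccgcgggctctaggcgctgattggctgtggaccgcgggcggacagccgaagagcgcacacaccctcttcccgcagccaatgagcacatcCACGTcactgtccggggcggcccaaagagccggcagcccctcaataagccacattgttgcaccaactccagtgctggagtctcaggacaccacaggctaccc
Ldha: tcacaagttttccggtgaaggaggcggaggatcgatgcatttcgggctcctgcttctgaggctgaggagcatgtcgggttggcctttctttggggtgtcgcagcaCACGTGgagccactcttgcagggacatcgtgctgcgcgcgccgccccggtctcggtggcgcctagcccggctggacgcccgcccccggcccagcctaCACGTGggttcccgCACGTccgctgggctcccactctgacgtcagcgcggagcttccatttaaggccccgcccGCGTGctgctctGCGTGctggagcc
Ldhb: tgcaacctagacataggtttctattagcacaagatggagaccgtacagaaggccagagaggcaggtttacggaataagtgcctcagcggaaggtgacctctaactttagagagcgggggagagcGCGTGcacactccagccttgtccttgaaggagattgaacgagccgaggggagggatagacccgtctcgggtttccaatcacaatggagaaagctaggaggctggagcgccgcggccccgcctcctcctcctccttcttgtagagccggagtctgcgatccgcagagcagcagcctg
ACGTG occurs at 2 places in the Hk2 window, and the Ldha window shown holds CACGTG, which the windows of Hk2 and Ldhb lack. A second Ldha window, at chr7:46846832-46847131 and not shown, holds GCGTG but neither ACGTG nor CACGTG. Over the listed genes, 13 of 15 windows held ACGTG or GCGTG, in 9 of the 10 genes, against 43.8% of 32851 windows of the same length, and windows of one gene can overlap. The gene without either was Tpi1. CACGTG was in 1 of the 15 windows, against 7.15% of all. A match of letters is a description of the window and says nothing of binding in these cells.

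Other genes of the same reactions included 5 that fell in SKG cells. Of 15 listed, 13 had a probe set of their own and 11 were tested by their brightest, and 0 were called higher and 5 lower, against 14.4% of 12079 genes higher and 10.7% lower. Their median difference was -0.21, against 0.06 over all genes. At an unadjusted p under 0.05 the count was 1 higher and 5 lower. The other 6 did not pass, among them Pkm, the pyruvate kinase gene, at -0.21. Gapdh and Gpi1 had no probe set annotated to them alone and are not analysed here.

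Ldhb, the subunit that favours pyruvate formation, read 7.07, 7.02 and 7.27 in SKG cells and 8.71, 8.61 and 8.87 in BALB cells. The groups were far apart relative to their spread, with a difference of -1.61 ± 0.17 (SE, limma adjusted p = 0.000498), and its 4 probe sets gave -2.30 to -1.61. Slc2a3, which encodes the glucose transporter GLUT3, read 9.97, 10.21 and 10.18 in SKG cells and 11.19, 11.03 and 11.50 in BALB cells, a difference of -1.12 ± 0.15 (limma adjusted p = 0.00141). The 3 Slc2a3 probe sets tested gave -1.33 to -0.50. Eno2, the enolase known from neurons, read 4.49, 5.26 and 4.60 in SKG cells and 7.67, 7.37 and 6.72 in BALB cells, a difference of -2.47 ± 0.29 (limma adjusted p = 0.000823). Of these 3 SKG values of Eno2, 2 lay under 4.74, the level a probe set had to average to be tested, so the size of this difference rests on the added constant.

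Hk1, the hexokinase of most resting tissues, read 8.41, 8.01 and 9.81 in SKG cells and 9.97, 10.02 and 10.82 in BALB cells. SKG replicate 3 stood well above the other SKG arrays and just below the lowest BALB array. The difference of -1.53 ± 0.42 had a limma adjusted p of 0.032 and was lost in 8 of 20 alternatives, including the removal of SKG replicate 1 or 2 or of any BALB array. Hk1 and Hk2 thus had opposite signs in the same arrays. Aldoc, another aldolase, differed by -1.01 ± 0.21 (limma adjusted p = 0.0101), with SKG levels of 5.26, 5.01 and 4.72 near the same limit.

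Regulators of the pathway and the lactate exporter gave 3 called lower and 0 higher of 9 tested, the same counts as at an unadjusted p under 0.05, against 14.4% of all genes higher and 10.7% lower, with a median of -0.17. Pfkfb4, which sets the level of an activator of phosphofructokinase, differed by -1.28 ± 0.22 (limma adjusted p = 0.00399). Its probe set was dim in SKG cells, and the size ran from -1.73 with a constant of 1 to -0.73 with a constant of 64, called in each of the 20 alternatives. Arrdc4, a relative of the glucose uptake inhibitor Txnip, differed by -1.15 ± 0.21 (limma adjusted p = 0.00493). Slc16a1, which exports lactate, differed by -0.34 ± 0.10 (limma adjusted p = 0.037), a call lost in 9 of 20 alternatives, among them the removal of any SKG array or of BALB replicate 1 or 2, and its second probe set gave 0.15. None of the 3 was a glycolytic enzyme itself, and Txnip at -0.44 did not pass.

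Of 17 genes tested from the hypoxia list, 2 were called higher and 7 lower in SKG cells, against 14.4% of all genes higher and 10.7% lower, with a median of 0.04 against 0.06 over all genes. The 2 higher were Hif1a, the oxygen-regulated subunit of HIF-1, at 0.31 ± 0.10 (limma adjusted p = 0.0465), and Egln3, a prolyl hydroxylase that marks HIF for destruction, at 0.78 ± 0.18. The 7 lower were Bnip3 at -1.16, Mxi1 at -1.41, P4ha1 at -1.0, Ankrd37 at -1.25, Vegfa at -1.41, Kdm3a at -0.76 and Higd1a at -0.37. A second probe set gave -0.81 for Mxi1 and -0.28 for P4ha1. Without SKG replicate 1, 4 of these genes were called lower, and without SKG replicate 2, 3.

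The Myc and mTORC1 list gave 1 called higher and 4 lower of 15 tested, against 14.4% of all genes higher and 10.7% lower, with a median of 0.04. The 1 higher was Rptor, the subunit that defines mTORC1, at 0.62 (limma adjusted p = 0.0455). The 4 lower were Myc itself at -0.56 ± 0.12 (limma adjusted p = 0.0125), Mxd1 at -1.60 and Mxd4 at -1.37, which compete with Myc for its partner Max, and Mlxip, a glucose-sensing factor, at -0.84. The call on Mxd4 was lost in 6 of 20 alternatives, and its 4 probe sets gave -1.37 to -0.27. In the pentose phosphate pathway, which branches from glucose 6-phosphate, 1 of 6 was called higher, Taldo1 at 0.56, and 1 lower, Pgd at -0.52, each near the share of all genes. The call on Taldo1 was lost in 9 of 20 alternatives, among them the removal of SKG replicate 1 or 2 or of any BALB array, and that on Pgd in 6 of 20, among them the removal of replicate 1 or 2 of either group. Of 3 genes tested on the gluconeogenesis list, Pck2, a mitochondrial enzyme that makes phosphoenolpyruvate, was called higher at 1.50 ± 0.29 (limma adjusted p = 0.00694). Its second probe set gave 0.73. Of 17 tested from the TCA cycle and pyruvate dehydrogenase, 3 were called higher and 1 lower, against the same 14.4% and 10.7%, and the median was 0.27 against 0.06 over all genes. The 3 higher were Suclg2 at 1.26, Sdha at 0.79 and Idh3a at 0.64, and the 1 lower was Pdha1, the pyruvate dehydrogenase subunit that admits pyruvate to the cycle, at -0.92. Other probe sets of Sdha ranged down to -0.53 and of Idh3a to -0.14, so these calls hold for the brightest probe set.

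The replicate block added calls on 3 of these lists, in a fit where 19.2% of all genes were called higher in SKG cells and 14.1% lower. The Myc and mTORC1 list then had 2 higher and 5 lower, with Slc7a5, an amino acid transporter gene, at 0.42 (limma adjusted p = 0.0393) and Mnt, another Max partner, at -0.55 (adjusted p = 0.0185) added. Gluconeogenesis had 2 higher, with G6pc3 at 0.66 (limma adjusted p = 0.0306) added. The TCA cycle list had 6 higher and 2 lower, with Sdhb at 0.38, Cs at 0.35 and Mdh2 at 0.27 added above 0 and Dlst at -0.48 below it.

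**Figure D3:**
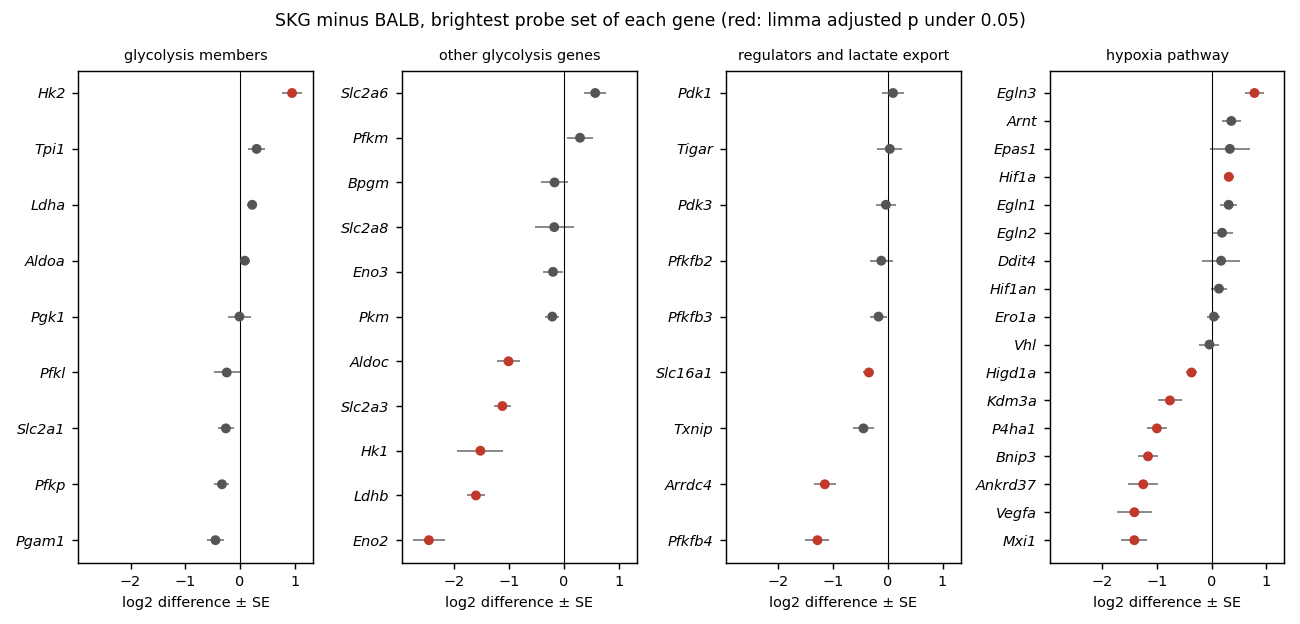
Log2 difference SKG minus BALB with its SE for the brightest probe set of each tested gene, in panels for the glycolysis members, other glycolysis genes, regulators with lactate export and the hypoxia list. Red points were called by limma: 1 of 9 members, to the right of 0, and 5 of 11 other glycolysis genes, 3 of 9 regulators and 7 of 17 hypoxia genes to the left of it, with 2 hypoxia genes to the right.

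Between the transfer groups, no glycolysis probe set was called in either direction. Of the 23, 0 passed limma's adjusted threshold, where 0.0444% of all probe sets did, and 0 passed with the replicate block, where 1.11% did. Without adjustment, 1 of the 23 had a limma p under 0.05, against 4.09% of all probe sets. It was an Aldoa probe set (1447734_x_at), which was also the only one of the 23 whose groups did not overlap, against 9.70% of all probe sets. It read 9.80, 9.74 and 9.87 in the IFNg KO transfer and 9.07, 9.42 and 9.55 in the IL-6 KO transfer, a difference of 0.45 ± 0.18 (SE, limma adjusted p = 1). The other 4 Aldoa probe sets gave -0.11 to 0.08. The median size of the 23 differences was 0.06, against 0.15 over all probe sets.

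Hk2 read 10.74, 10.74 and 10.18 in the IFNg KO transfer and 10.90, 10.72 and 11.47 in the IL-6 KO transfer. Replicates 1 and 2 of both groups lay close together, and replicate 3 was the lowest array of one group and the highest of the other. The difference of -0.48 had a 95% interval of -1.04 to 0.08 (limma adjusted p = 1), and without IL-6 KO transfer replicate 3 it was -0.26. For Pgam1 the interval was narrow, -0.22 to 0.21, and for Ldha it was -0.25 to 0.33. For the Aldoa probe set 1433604_x_at it was -1.40 to 1.19, and -0.27 to 0.06 with the replicate block, which takes up the shared shift of replicate 3. Over the 23 probe sets the blocked intervals lay within -0.94 and 0.75.

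Replicate 3 of both transfer groups read lower for much of the pathway. Set against the mean of replicates 1 and 2, it was lower by more than 0.5 for 13 of the 23 probe sets in the IFNg KO transfer and for 12 in the IL-6 KO transfer, and in SKG and BALB cells for 2 and 3. Counted either way, 13 of the 23 moved by more than 0.5 in the IFNg KO and 14 in the IL-6 KO transfer, 4 in SKG and 5 in BALB cells. Over all probe sets, 34.6% in the IFNg KO and 38.9% in the IL-6 KO transfer moved by more than 0.5 either way, and 26.2% in SKG and 27.3% in BALB cells. The share that was lower was not taken over all probe sets. Replicates 1 and 2 differed from each other by a median of 0.06 in the IFNg KO and 0.12 in the IL-6 KO transfer over the 23.

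For some genes all probe sets shared the shift of replicate 3, and for others they differed. All 3 Pfkl probe sets were lower, with -1.38 to -0.34 in the IFNg KO and -1.31 to -0.50 in the IL-6 KO transfer. For 4 of the 5 Aldoa probe sets it was -0.86 to -1.64 in the IFNg KO transfer and -0.62 to -1.55 in the IL-6 KO transfer, and for the fifth it was 0.10 and 0.31. All 3 Tpi1 probe sets were lower in both groups, with -1.55 to -0.90 in the IFNg KO and -1.33 to -0.64 in the IL-6 KO transfer. Slc2a1 went both ways: 1434773_a_at shifted by 0.50 in the IFNg KO and 0.48 in the IL-6 KO transfer, and 1426600_at by -0.72 and -0.60. Pfkp did likewise, with 0.41 and 0.28 for 1416069_at and -0.75 and -1.56 for 1430634_a_at. The same 2 arrays had the Gapdh ratios of 7.99 and 9.33, and the part of RNA quality in these shifts was not tested. On replicates 1 and 2 alone, still none of the 23 was called between the transfer groups, the lowest limma adjusted p being 0.0568.

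**Figure D4:**
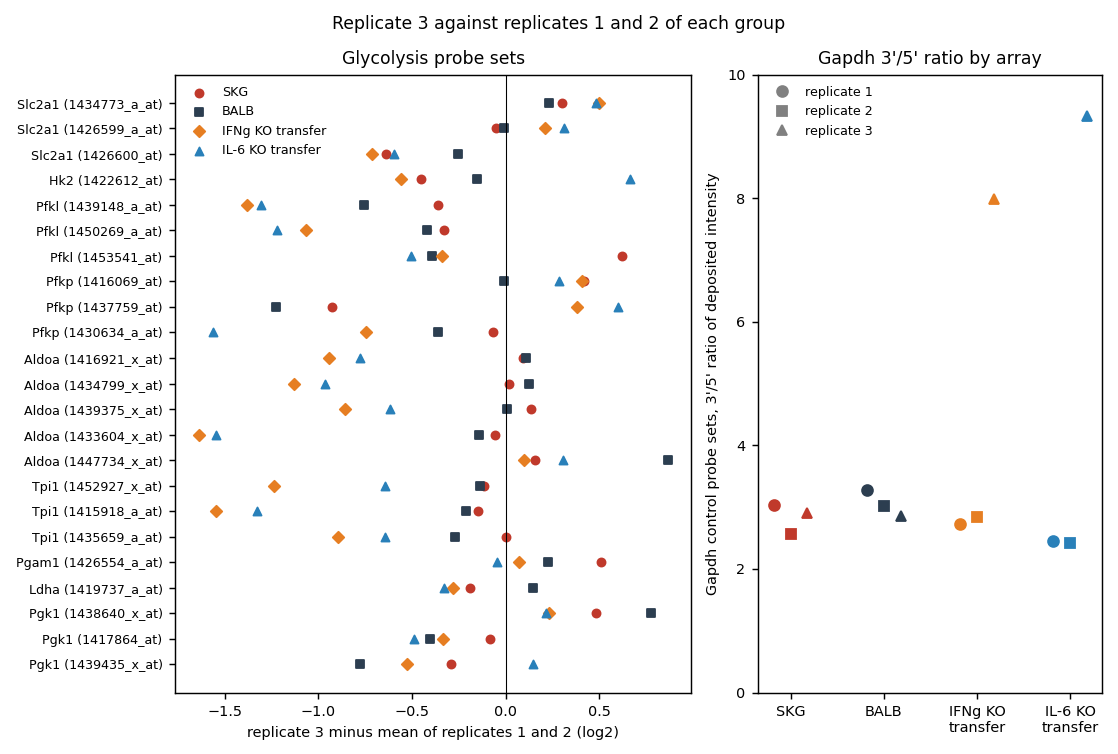
Left, replicate 3 minus the mean of replicates 1 and 2 (log2) for each glycolysis probe set in the 4 groups. Right, the 3′ to 5′ ratio of the deposited Gapdh control intensities on each array: the 2 transfer arrays of replicate 3, at 7.99 and 9.33, stand above all others, and the same 2 groups reach the lowest values on the left.

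Of the 80 genes tested over the 7 other lists, limma called 0 between the transfer groups without the block, where 0.0897% of all genes were called and 2 of the 80 had a p under 0.05 before adjustment. In the blocked fit, which called 1.53% of all genes, Slc2a3 at -0.47 (limma adjusted p = 0.0373) was called lower in the IFNg KO transfer on the list of other glycolysis genes, and Epas1, which encodes HIF-2 alpha, at -1.56 (adjusted p = 0.000371) on the hypoxia list. Epas1 read 7.16, 7.07 and 8.96 in the IFNg KO transfer and 8.84, 8.71 and 10.30 in the IL-6 KO transfer. Within each replicate number the IFNg KO array was lower, and replicate 3 was the highest of its group in both. Its adjusted p without the block was 1.

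The difference between the comparisons, SKG minus BALB less the IFNg KO minus the IL-6 KO transfer, was tested over the 12 arrays, which also differ in age, tissue and stimulation. Hk2 was the 1 of the 23 called, where 4.48% of all probe sets were. Of the 23, 2 had an unadjusted p under 0.05, against 18.9% of all probe sets. The value for Hk2 was 1.43 ± 0.33 (SE, limma adjusted p = 0.0274). The call was lost when SKG replicate 1 or 2, any of the BALB arrays or IL-6 KO transfer replicate 1 was left out, with adjusted p up to 0.0729 and values of 1.21 to 1.50. With the replicate block, where 18.4% of all probe sets were called, Hk2 (limma adjusted p = 0.00636) and Pgam1 at -0.45 (adjusted p = 0.0182, against 0.212 without the block) were called. Of 79 genes tested over the 7 other lists, 7 were called in the interaction, against 6.11% of all genes, and 27 with the block, against 23.4%.

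Across the 4 groups the order of mean levels, taken from each gene's brightest probe set, differed from gene to gene. Hk2 ran from SKG at 11.25 through the IL-6 KO transfer at 11.03 and the IFNg KO transfer at 10.55 to BALB at 10.31, and each neighbouring pair overlapped. Pgam1 and Pfkp were highest in BALB cells, at 12.27 and 11.59, with SKG next at 11.82 and 11.26 and the transfer groups lowest. Tpi1 was lowest in BALB cells at 9.79. Of the 27 steps between neighbours over the 9 genes, 3 were free of overlap, and all 3 lay between SKG and BALB cells, for Pfkp, Tpi1 and Pgam1. Over all probe sets, the SKG and BALB arrays did not overlap for 38.1%, and those of the transfer groups for 9.70%. Hk2 is not among the 3, because SKG and BALB, though apart, were not neighbours in its order. Aldoa and Pgk1 had their highest means in the transfer groups, 12.47 and 13.14 in the IFNg KO and 12.49 and 13.16 in the IL-6 KO transfer, 12.23 and 12.66 in SKG and 12.15 and 12.68 in BALB cells. Some other probe sets of these genes gave another order. Pgk1 1417864_at averaged 12.47 in SKG cells, 12.38 in the IFNg KO and 12.43 in the IL-6 KO transfer. Aldoa 1433604_x_at averaged 11.39 in BALB cells and 11.36 in the IFNg KO transfer. Pfkp 1430634_a_at was highest in SKG cells, at 7.07. All arrays were set on one scale, and the transfer cells were younger, from spleen and without the labelled stimulation, so no test is given for these steps.

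The genes whose pattern over the 12 arrays was most like the mean z-score of the 9 genes, among 12167 compared by Pearson's r, were Phf2 at 0.94, Nr1i2 at 0.91, Acy1 at 0.90, Tmco3 at 0.90, Dnm2 at 0.88 and Mrpl38 at 0.87. The mean did not follow all of the 9 genes. Their own r with it ran from -0.36 for Slc2a1 to 0.79 for Aldoa, with Hk2 at -0.03. The 12 points share the 4 groups and the shift of replicate 3, and no test is given.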

How the data were processed

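Values were the deposited linear intensities of the submitters' matrix, 1 per probe set and array, on 12 arrays. Total RNA went through RNeasy columns and was biotin-labelled in an in vitro transcription, per the labels' protocols. How the deposited intensity values were computed and normalized is not given in the sources used here. Annotation gives 1 gene to 34945 of the 45101 probe sets, several to 932 and none to 9160, and 64 are controls.

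The 45037 probe sets without controls were quantile normalized over the 12 arrays as log2(intensity + 16). Probe sets with a mean under the 40th percentile in the arrays of a fit were left out. R 4.3.3 with limma 3.58.1 fitted the 6 arrays of a comparison at a time (eBayes with trend, two-sided, Benjamini-Hochberg), and all 12 for the interaction. A gene outside the member list stands by its brightest probe set. The number of arrays limits the precision. Calls were tested on simulated data, with noise drawn independently for each array and so without the shared shift of replicate 3. Changes of 1 were called in 39% of cases for SKG minus BALB, 26% for the transfer and 22% for the interaction. For changes of 2 these were 86%, 64% and 70%. A change of 1 or less would thus often go uncalled.

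The members and the gene lists were chosen with earlier results of these data known. Named are all member probe sets, up to 4 passing genes of each other list by smallest p (2 where none passed) and the 6 genes most like the members; further genes of short counts were named after their values were seen. The titles number replicates 1 to 3 in every group. Deviations of same-numbered arrays from their group means had correlations of 0.15, 0.17 and 0.35 for SKG with BALB. For the transfer groups these were 0.43, 0.41 and 0.68. Each exceeded 0.1, so a second fit treated the numbers as pairs. Arrays of unlike number were not correlated, so these values do not show that replicates 1 and 2 pair by number. Calls made only with the block rest on this choice. Alternatives were other constants, filters, normalizations and variance models, a fit over all arrays, the replicate block, array weights and fewer arrays. A block of replicate 3 against replicates 1 and 2 was added after seeing the data. Motif matches used the RefSeq start regions of GRCm38.p6, and no coordinates are given for probe sets.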

Additional observations from a re-analysis of the deposited data

Results flagged for a closer look

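The test of the difference between the comparisons, SKG minus BALB less the IFNg KO minus the IL-6 KO transfer, passed limma's threshold without the replicate block for 8 of the genes described. These were Hk2 and 7 of the 79 genes tested on the other lists, where 6.11% of all genes were called. The groups also differ in age, tissue and labelled stimulation between the comparisons. No group had enough arrays for a test of a single outlying array.

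Hk2 was 1.43 ± 0.33 (SE, limma adjusted p = 0.0274), from 0.95 between SKG and BALB cells and -0.48 between the transfer groups. Among the other lists, Pck2 was positive, at 1.66 ± 0.41 (adjusted p = 0.0398), with its 0.95 to 1.87 between SKG and BALB cells called in every alternative run. Negative were Eno2 at -2.29 ± 0.41 (adjusted p = 0.00839), Ldhb at -1.48 ± 0.28 (adjusted p = 0.0118), Pfkfb4 at -1.49 ± 0.29 (adjusted p = 0.012), Aldoc at -1.31 ± 0.29 (adjusted p = 0.0229), Bnip3 at -1.34 ± 0.34 (adjusted p = 0.0442) and Mxi1 at -1.76 ± 0.46 (adjusted p = 0.0468). In each of the 8, the difference between SKG and BALB cells was called and the one between the transfer groups was not. The interaction of Eno2, Ldhb and Pfkfb4 was called under all alternatives run, 23 or 24 of them. That of Hk2 was lost in 6 of 24, of Aldoc in 7 of 23, of Pck2 in 10 of 24, of Bnip3 in 13 of 24 and of Mxi1 in 14 of 24, mostly on leaving out 1 array. Pfkfb4 ran from -2.03 with a constant of 1 to -0.83 with one of 64. The interaction of Eno2 ran from -3.23 to -1.33 over the alternatives. Eno2 read 4.84, 5.07 and 5.55 in the IFNg KO and 5.41, 5.06 and 5.50 in the IL-6 KO transfer. These levels are near 4.73, the mean a probe set needed to be tested there, so a difference between the transfer groups could hardly show. With the replicate block, the genes called on the 7 lists beside the glycolysis genes numbered 27 of 79 in place of 7, against 23.4% of all genes. Among those added were Mxd1 at -1.61 (limma adjusted p = 0.000982), Suclg2 at 1.13 (adjusted p = 0.000984), Pdha1 at -0.95 (adjusted p = 0.00122) and Taldo1 at 0.66 (adjusted p = 0.00713).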

How the results depend on the processing

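No call on a glycolysis probe set reversed its direction under any of the 20 alternatives run for each comparison or the 24 for the interaction. Between SKG and BALB cells, 420 of 446 values kept their side of the threshold and 26 gained a call. Between the transfer groups all 446 stayed uncalled. In the interaction 524 of 538 kept theirs, 8 gained a call and 6 lost one, all 6 being Hk2. Hk2 was called between SKG and BALB cells throughout, at adjusted p of 0.000512 to 0.0357. The replicate block moved no call of a member probe set beyond those given in the report.

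Member probe sets called higher in SKG cells numbered 2 with the replicate block, 2 with array weights, 3 on replicates 1 and 2 only and 2 with replicate 3 blocked against the others. Those called lower numbered 1 in a fit of all 12 arrays, 2 with the replicate block, 3 with array weights, 6 on replicates 1 and 2 only and 5 with replicate 3 blocked. Leaving out 1 array gave 1 to 2 higher and 0 to 2 lower, the 2 lower without SKG replicate 3. Over all probe sets, 5446 were called, 3101 without normalization, 3323 with one probe set per gene, 8976 with array weights, 9031 on replicates 1 and 2 only, 8761 with replicate 3 blocked and 2946 to 6477 without 1 array, the low counts being 2946 without SKG replicate 1, 2953 without SKG replicate 2 and 3168 without BALB replicate 1. The hypoxia genes called lower numbered 3 to 7 without 1 array.

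Between the transfer groups 12 of all probe sets were called, 7 without the intensity trend, 39 in a fit of all 12 arrays, 300 with the replicate block, 167 with array weights, 725 on replicates 1 and 2 only, 449 with replicate 3 blocked and 2 to 36 without 1 array, the 36 without IL-6 KO transfer replicate 3. In the interaction 1211 were called, 570 without normalization, 4972 with the replicate block, 5614 with array weights, 6212 on replicates 1 and 2 only, 6045 with replicate 3 blocked and 552 to 2034 without 1 array, lowest without SKG replicate 2 and highest without IL-6 KO transfer replicate 3. Member probe sets called lower in it numbered 1 with the replicate block, with array weights and with replicate 3 blocked and 3 on replicates 1 and 2 only, where 2 were called higher, and without 1 array 0 to 1 either way. The causes were not tested. Between the transfer groups, 95% intervals of member probe sets reached -1.40 and 1.37 without the replicate block and -0.94 and 0.75 with it.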
